A study of Mus musculus with 6 samples.

Results

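The heartbeat is carried by ion channels and gap junctions. Voltage-gated sodium channels give the fast upstroke of the action potential, calcium channels sustain it and start contraction, pacemaker (HCN) channels carry a depolarizing current that is strongest in the sinus node, and connexins form the gap junctions through which the impulse passes from cell to cell. Sodium and calcium channels consist of a pore subunit with auxiliary subunits that set its surface level and gating, and ventricle, atrium, conduction system, vessels, nerves and skeletal muscle each use their own members of these families.

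The genes described here are the protein-coding genes of these 4 families in the deposited expression table, chosen by their symbols. The rule finds 59 genes among 30914 in the table, with 14 sodium channel, 24 calcium channel, 4 pacemaker channel and 17 connexin genes. Of the 59, 22 reached at least 0.5 FPKM in at least 3 of the 6 libraries, among 13089 genes that did so in the whole table. FPKM is the number of fragments of a transcript relative to its length and to all mapped fragments of the library, so levels of different genes can be compared on this scale. The 22 comprise 5 sodium channel, 10 calcium channel, 2 pacemaker channel and 5 connexin genes, and none of them reached 0.5 FPKM in libraries of 1 group only.

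RNA was sequenced from the hearts of wild-type male C57BL/6J mice, 3 in each group and 8 weeks old at the start. The Ang II group was infused by osmotic pump with angiotensin II, a peptide that raises blood pressure and enlarges the heart, at 1 μg/kg/min for 4 weeks. The Ang II + Tec group had the same infusion and also received Tec (tectochrysin, a flavonoid), 5 mg/kg, in the final 2 of these weeks. All 6 mice received Ang II and no library of a mouse without it was used here, so the comparison is of Tec against no Tec under Ang II. Values in the following are given for replicates 1, 2 and 3 of a group in that order.

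The libraries differed within both groups before any channel gene was considered. The atrial light chain Myl7 stood at 419, 332 and 0 FPKM in the Ang II group and at 0, 1040 and 1.58 FPKM among the hearts with Tec. It was therefore abundant in Ang II replicates 1 and 2 and in Ang II + Tec replicate 2, and nearly absent from the other 3. The ventricular light chain Myl2 was high in every library, at 1663.15, 1226.94 and 1985.13 FPKM with Ang II and at 2114.7, 1526.91 and 2068.57 FPKM with Ang II + Tec. Over all tested genes, the first principal component (68.7% of the variance) placed Ang II replicates 1 and 2 at -31.2 and -46.0, and Ang II replicate 3 at 19.2, beside the hearts with Tec at 28.6, 2.4 and 27.0. Because whole hearts or parts of them were sequenced in bulk, fewer cells of a type and less RNA per cell cannot be told apart.

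Among the sodium channel pores, Scn7a, a sodium-sensing channel known from glia and peripheral tissue, gave 5.38, 5.88 and 3.83 FPKM with Ang II and 3.32, 5.69 and 3.64 FPKM with Ang II + Tec. Scn4a, the pore of skeletal muscle, gave 0.60, 0.49 and 1.37 FPKM with Ang II and 1.23, 1.14 and 0.91 FPKM with Ang II + Tec. Both genes overlapped between the groups. In Scn7a the high libraries were Ang II replicates 1 and 2 and Ang II + Tec replicate 2, and in Scn4a the 2 lowest values were those of Ang II replicates 1 and 2.

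Scn4b encodes a beta subunit, a single-pass membrane protein that modulates the sodium pore and takes part in cell adhesion. It stood at 1.02, 0.88 and 3.08 FPKM with Ang II and at 5.77, 5.31 and 3.88 FPKM with Ang II + Tec. All 3 hearts with Tec were above all 3 without it, and Ang II replicate 3 was nearest to them. The means were 1.66 ± 1.23 and 4.99 ± 0.986 FPKM (SD, n = 3 each), a ratio of 3.00. Scn4b had the largest log2 fold change of the 22 genes, 1.25 with a standard error of 0.30 (unadjusted p = 0.00398 in limma), but its Benjamini-Hochberg adjusted p of 0.201 did not pass 0.05. Its fold change kept its sign in all 17 alternatives, between 1.05 and 1.73, and its adjusted p ranged from 0.00206 to 0.650 over them, passing 0.05 only when Ang II replicate 3 was left out (0.00206). Between the 3 libraries with Myl7 under 10 FPKM (Ang II replicate 3 against Ang II + Tec replicates 1 and 3), a comparison with no test chosen after seeing the data, the log2 difference of Scn4b was 0.49.

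**Figure D1:**
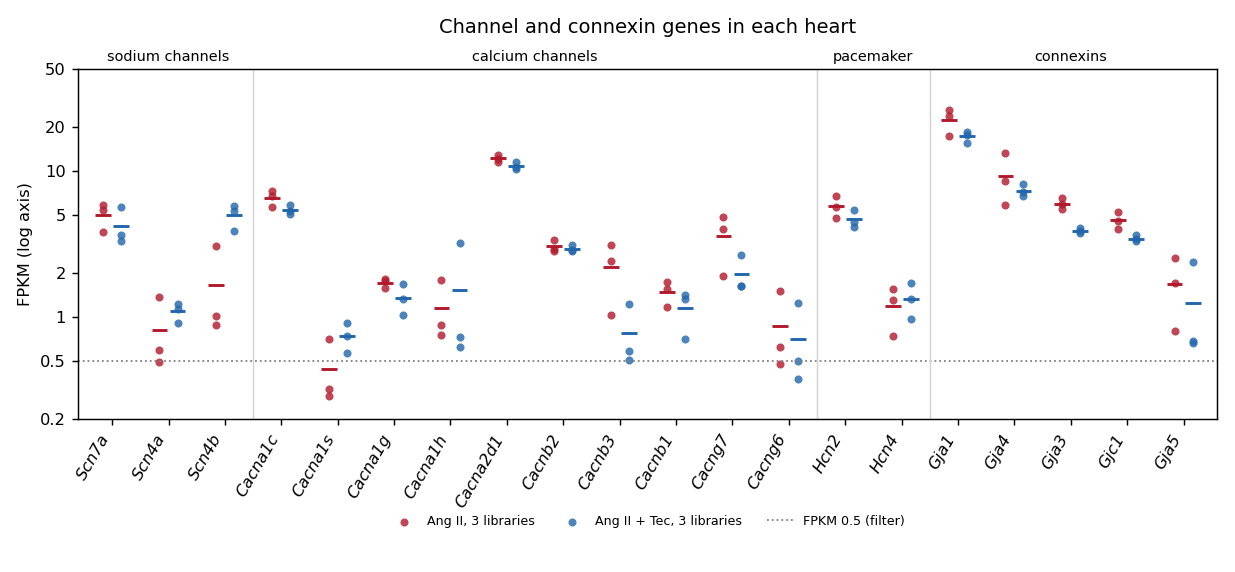
FPKM on a log axis of 20 of the 22 channel and connexin genes above the filter, with 1 point per heart and a bar at the mean of the 3 hearts of a group. Scn4b lies higher in all hearts with Tec, Gja3 and Gjc1 lie lower in all of them, and the groups overlap in the other 17 genes shown.

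Of the calcium channel pores, Cacna1c, the L-type channel that triggers contraction in working muscle, gave 6.73, 5.63 and 7.34 FPKM with Ang II and 5.09, 5.83 and 5.33 FPKM with Ang II + Tec. The groups overlapped by 1 library of each, with log2 fold change -0.23 (95% interval -0.53 to 0.06). This fold change was -0.03 with median-of-ratios scaling. Cacna1g, a T-type channel of the conduction system, stood at 1.82, 1.57 and 1.76 FPKM with Ang II and at 1.04, 1.68 and 1.34 FPKM with Ang II + Tec. Here too only Ang II + Tec replicate 2 reached into the Ang II range.

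Cacna1h, the other T-type channel of the heart, gave 1.80, 0.89 and 0.76 FPKM with Ang II and 0.73, 3.23 and 0.62 FPKM with Ang II + Tec. Ang II + Tec replicate 2 alone carried the higher mean with Tec. The log2 fold change of 0.12 turned to -0.33 when that library was left out, and to -0.01 when Ang II replicate 3 was. Cacna1s, the L-type pore of skeletal muscle, stood at 0.32, 0.29 and 0.71 FPKM with Ang II and at 0.74, 0.57 and 0.91 FPKM with Ang II + Tec. As with Scn4a, Ang II replicates 1 and 2 were lowest. Ang II replicate 3 lay among the hearts with Tec in Cacna1s and above them in Scn4a.

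Cacna2d1 encodes the alpha-2-delta subunit that brings the pore to the surface, and it was the most abundant calcium channel gene. It stood at 11.5, 12.1 and 12.9 FPKM with Ang II and at 10.3, 10.6 and 11.6 FPKM with Ang II + Tec. The groups met between Ang II replicate 1 and Ang II + Tec replicate 3, and the log2 fold change of -0.15 became 0.06 with median-of-ratios scaling.

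Beta subunits bind the pore inside the cell and promote its opening. Cacnb2, the main beta subunit of heart muscle, gave 3.39, 2.82 and 2.91 FPKM with Ang II and 2.85, 3.10 and 2.86 FPKM with Ang II + Tec. Cacnb3, known from neurons and smooth muscle, gave 2.42, 3.12 and 1.04 FPKM with Ang II and 0.59, 1.22 and 0.51 FPKM with Ang II + Tec. Cacnb1, the skeletal muscle form, gave 1.74, 1.56 and 1.18 FPKM with Ang II and 1.41, 1.32 and 0.71 FPKM with Ang II + Tec. Cacnb2 was nearly even across the 6 hearts, with log2 fold change -0.04 that turned to 0.14 with median-of-ratios scaling and to 0.03 without Ang II replicate 1. In Cacnb3 the overlap came from Ang II replicate 3 and Ang II + Tec replicate 2 alone. Its mean was 2.19 ± 1.06 FPKM with Ang II and 0.773 ± 0.389 FPKM with Tec (SD, n = 3 each). The log2 fold change of Cacnb3 was -0.81 with a standard error of 0.28 (unadjusted p = 0.0209, adjusted p = 0.229 by Benjamini-Hochberg in limma), and the unadjusted p passed 0.05 in 13 of its 17 alternatives. It was 0.0644, 0.0573, 0.0629 and 0.0659 when Ang II replicate 1 or 2 or Ang II + Tec replicate 1 or 3 was left out. The log2 fold changes of these fits were -0.73, -0.60, -0.74 and -0.71 in the same order. Leaving out Ang II replicate 3 gave -1.10 with an adjusted p of 0.00911 in limma. Between the 3 libraries with little Myl7 the log2 difference of Cacnb3 was -0.40. Cacnb3 made up 32.1%, 41.6% and 20.3% of the summed FPKM of the 3 beta subunit genes with Ang II and 12.2%, 21.6% and 12.5% with Ang II + Tec, and Cacnb2 made up most of the rest.

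The gamma subunit genes Cacng7 and Cacng6 lie in 1 cluster with Cacng8 on chromosome 7. Cacng7 stood at 4.01, 4.83 and 1.91 FPKM with Ang II and at 1.63, 2.67 and 1.64 FPKM with Ang II + Tec. Cacng6 stood at 0.48, 0.62 and 1.51 FPKM with Ang II and at 0.38, 0.50 and 1.24 FPKM with Ang II + Tec. In Cacng7 the high libraries were Ang II replicates 1 and 2, in Cacng6 replicate 3 of either group, and both genes overlapped between the groups. The log2 fold change was -0.58 for Cacng7 (95% interval -1.22 to 0.06) and -0.13 for Cacng6, which turned to 0.11 when Ang II replicate 3 was left out and to 0.01 when Ang II + Tec replicate 1 was.

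Of the pacemaker channels, Hcn2 was the most abundant, at 5.67, 4.75 and 6.78 FPKM with Ang II and at 5.44, 4.14 and 4.5 FPKM with Ang II + Tec. Hcn4, the main pacemaker channel of the sinus node, gave 1.55, 0.74 and 1.3 FPKM with Ang II and 0.97, 1.72 and 1.32 FPKM with Ang II + Tec. Neither gene separated the groups, and the log2 fold change was -0.24 for Hcn2 and 0.09 for Hcn4. That of Hcn2 was -0.04 with median-of-ratios scaling, and ranged from -0.35 to -0.13 when each library was left out. With Myl7 as a covariate it was -0.30 (unadjusted p = 0.0311, adjusted p = 0.160 in limma). The log2 fold change of Hcn4 turned to -0.06 when Ang II replicate 2 was left out and to -0.02 when Ang II + Tec replicate 2 was. Tbx3, a transcription factor of the conduction system, stood at 1.44, 0.76 and 1.42 FPKM with Ang II and at 1.18, 1.54 and 1.25 FPKM with Ang II + Tec, so that Ang II replicate 2 was lowest and Ang II + Tec replicate 2 highest in both Tbx3 and Hcn4. Of 10 marker genes of sinus node and conduction system, Tbx3 among them, 7 passed the filter. No other of the 10 shared both of these extremes. Tbx18 was highest in Ang II replicate 2 at 1.95 FPKM, and Irx3 lowest in Ang II + Tec replicate 2 at 4.75 FPKM. Smoc2, the most abundant, was the 1 marker with an unadjusted p under 0.05, higher with Tec (background 2.09%). It stood at 9.05, 9.03 and 8.91 FPKM with Ang II and at 13.07, 10.09 and 10.7 FPKM with Ang II + Tec (unadjusted p = 0.0498, adjusted p = 0.268 in limma). The sums of the 10 were 23.6, 19.6 and 17.9 FPKM with Ang II and 21.9, 21.9 and 20.9 FPKM with Ang II + Tec. Isl1, a sinus node factor, was at 0 in 4 libraries and at 0.06 and 0.09 FPKM in Ang II replicate 2 and Ang II + Tec replicate 2.

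Gja1 encodes connexin 43, the main gap junction protein of ventricular muscle, and was the most abundant gene of the 22. It stood at 26.0, 23.7 and 17.2 FPKM with Ang II and at 18.5, 17.7 and 15.4 FPKM with Ang II + Tec. Ang II replicates 1 and 2 were above all other hearts, and Ang II replicate 3 lay among those with Tec. The log2 fold change of Gja1 was -0.34 (95% interval -0.74 to 0.05), and between the 3 libraries with little Myl7 the log2 difference was -0.03. The fold change was -0.12 with median-of-ratios scaling, and ranged from -0.51 to -0.23 when each library was left out.

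Gja3, which encodes connexin 46 and is best known from the eye lens, stood at 6.49, 5.91 and 5.47 FPKM with Ang II and at 3.78, 3.90 and 4.04 FPKM with Ang II + Tec. Gjc1, which encodes connexin 45 of the conduction system and smooth muscle, stood at 5.24, 4.54 and 4.00 FPKM with Ang II and at 3.41, 3.29 and 3.64 FPKM with Ang II + Tec. In both genes every heart with Tec was below every heart without it. The mean of Gja3 was 5.96 ± 0.512 FPKM with Ang II and 3.91 ± 0.130 FPKM with Tec (SD, n = 3 each), 1.52 times lower. The log2 fold change of Gja3 was -0.50 with a standard error of 0.11 (unadjusted p = 0.00232, adjusted p = 0.185 by Benjamini-Hochberg in limma), and it lay between -0.59 and -0.29 in the 17 alternatives. That of Gjc1 was -0.33 with a standard error of 0.12 (unadjusted p = 0.0317, adjusted p = 0.243 in limma). Leaving out Ang II replicate 3 gave adjusted p-values of 0.0130 for Gja3 and 0.0383 for Gjc1 in limma. Leaving out any other library kept the unadjusted p of Gja3 under 0.05, while that of Gjc1 became 0.131 and 0.0692 for Ang II replicates 1 and 2 and 0.0814, 0.0722 and 0.0622 for the 3 libraries with Tec. The log2 fold change of Gjc1 lay between -0.40 and -0.24 when each library was left out. Between the 3 libraries with little Myl7 the log2 difference was -0.40 for Gja3 and -0.14 for Gjc1. With median-of-ratios scaling the groups of Gja3 still did not overlap, while those of Gjc1 did, and the log2 fold change of Gjc1 was -0.14. Relative to Gja1 in the same library, Gja3 gave 0.249, 0.250 and 0.317 with Ang II and 0.205, 0.220 and 0.262 with Ang II + Tec, and Gjc1 gave 0.201, 0.192 and 0.232 against 0.185, 0.186 and 0.236. These ratios overlap between the groups for both genes.

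Gja4, which encodes connexin 37 of arterial endothelium, stood at 8.58, 13.3 and 5.83 FPKM with Ang II and at 7.16, 6.71 and 8.07 FPKM with Ang II + Tec. The hearts with Tec lay inside the Ang II range, and the log2 fold change turned from -0.24 to 0.04 when Ang II replicate 2 was left out. All 10 endothelial markers passed the filter, with Egfl7 most abundant, and summed to 119, 128 and 118 FPKM with Ang II and to 111, 113 and 103 FPKM with Ang II + Tec. These sums as deposited do not overlap, and neither did the groups in 21.8% of all tested genes taken singly. Of the 10 markers, 9 had a lower mean log2 value with Tec, against 80.0% of all tested genes. The sums were not compared under other scalings. Kdr and Egfl7, 2 of the 10, were lower with Tec at an unadjusted p under 0.05 (background 16.5%), and none had an adjusted p under 0.05 in limma. The 6 arterial markers summed to 27.0, 45.2 and 20.0 FPKM with Ang II and to 18.2, 23.0 and 19 FPKM with Ang II + Tec, with Fbln5 most abundant. The sum was highest in Ang II replicate 2 through Fbln5, at 29.42 FPKM there. Efnb2 was also highest in that library, at 2.73 FPKM against 2.65 FPKM in Ang II + Tec replicate 2, while Hey1, Sox17, Dll4 and Sema3g were not. The part of endothelial cells in the level of Gja4 was not tested. Gja5, which encodes connexin 40 of atrium, conduction system and arteries, stood at 1.72, 2.55 and 0.80 FPKM with Ang II and at 0.66, 2.37 and 0.69 FPKM with Ang II + Tec. Its high libraries were the 3 with abundant Myl7. The summed FPKM of these 5 connexins was 48.0, 49.9 and 33.3 with Ang II and 33.5, 34.0 and 31.9 with Ang II + Tec, of which Gja1 made up 47.4% to 55.2% in each library.

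None of the 22 genes was called, that is, had both an adjusted p under 0.05 in limma and a change of 1 or more on the log2 scale, where 21 of 13089 tested genes (0.16%) were called, and none had an adjusted p under 0.05 alone, as 24 of all tested genes (0.183%) did. At an unadjusted p under 0.05 there were 4 of 22 (18.2%), against 18.6% of all tested genes. Scn4b was the 1 such gene higher with Tec (4.55%, background 2.09%), and Gja3, Cacnb3 and Gjc1 were the 3 lower with it (13.6%, background 16.5%). The groups did not overlap in 3 of 22 genes (13.6%), against 21.8% of all tested genes, with 2 lower (9.09%, background 18.9%) and 1 higher (4.55%, background 2.9%). With so few genes these shares cannot be told apart from the background, and the differences were not tested. The count of 4 became 2 when Ang II replicate 1 was left out, 10 for Ang II replicate 3, and 2 for each of Ang II + Tec replicates 1 and 3, where the share of all tested genes became 7.4%, 43.7%, 9.46% and 9.1%. Without Ang II replicate 3, 9 of the 22 and 3776 of 13089 tested genes had an adjusted p under 0.05 in limma, Cacnb3 and Scn4b were called, and 557 genes were called in the whole table. Without Ang II replicates 1 and 2, the count of 21 called genes became 3 and 7, and without Ang II + Tec replicates 1, 2 and 3 it became 4, 2 and 3.

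With Tec the mean log2 value was lower in 17 of the 22 genes (77.3%), and so it was in 80.0% of all tested genes. The median log2 fold change was -0.22 over the 22 genes and -0.17 over all tested genes. With FPKM rescaled to an equal sum outside the mitochondrial genome, these medians were -0.20 and -0.14, and 17 of the 22 and 76.8% of all tested genes were lower. Median-of-ratios scaling centers the libraries, so that a median of 0.00 over all tested genes and 49.6% of them lower follow from its construction. Relative to that center, 14 of the 22 genes (63.6%) were lower, with a median of -0.04. Of the genes with an unadjusted p under 0.05 in the whole table, 11.2% were higher with Tec as deposited, 14.5% with the equal sum and 47.3% with median-of-ratios scaling. Cacnb3, Gja3 and Scn4b kept an unadjusted p under 0.05 with both scalings and Gjc1 with the equal sum only.

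**Figure D2:**
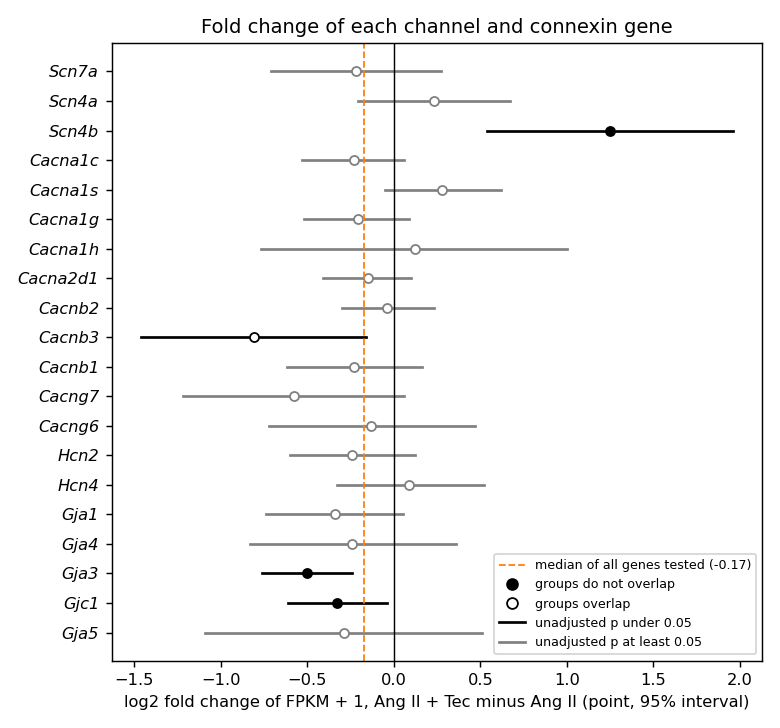
Log2 fold change of FPKM + 1 between the 3 hearts of the Ang II + Tec group and the 3 of the Ang II group for 20 of the 22 genes, with its 95% interval from limma and a dashed line at the median of all tested genes, -0.17. Scn4b at 1.25, Cacnb3 at -0.81, Gja3 at -0.50 and Gjc1 at -0.33 have intervals that leave out 0.

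The remaining 37 genes of the families did not pass the filter, and 4 of them were at 0 in all libraries. Just inside the filter, Cacna1s and Cacng6 reached 0.5 FPKM in 4 libraries each. Just outside it, Cacna2d2 did so in 2 libraries and Gjd3, Scn10a and Gjb5 in 1 each. The highest value outside the filter was 1.93 FPKM, for Cacna2d2 in Ang II + Tec replicate 2. The sodium channels of neurons Scn1a, Scn8a, Scn9a and Scn11a did not exceed 0.02 FPKM in any library, and Gjb1, Gjb2 and Gjb6, connexins of liver, skin and inner ear, were at 0 throughout.

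Some genes outside the filter were high in the 3 libraries with abundant Myl7. Cacna2d2, an alpha-2-delta subunit, stood at 0.79, 0.46 and 0.06 FPKM with Ang II and at 0.12, 1.93 and 0.17 FPKM with Ang II + Tec. Cacna1d, an L-type channel of atrium and sinus node, gave 0.37, 0.20 and 0.09 FPKM with Ang II and 0.09, 0.33 and 0.13 FPKM with Ang II + Tec. In these genes, as in Gja5, each of Ang II replicates 1 and 2 and Ang II + Tec replicate 2 was above each of the other 3, and in Cacna1h likewise. The 11 atrial markers summed to 6310, 10400 and 288 FPKM with Ang II and to 930, 5220 and 160 FPKM with Ang II + Tec, with Nppa most abundant. Of these markers Kcna5, highest in Ang II replicate 3 at 10.23 FPKM, and Kcnj3, at 8.26 FPKM there against 8 FPKM in Ang II replicate 2, did not follow Myl7. Of the 10 that passed the filter, all had a lower mean log2 value with Tec and none had an unadjusted p under 0.05. Myl7 was at 0 in Ang II replicate 3 and Ang II + Tec replicate 1, and Bmp10 was at 0 in these and in Ang II + Tec replicate 3. The 8 adipocyte markers, with Fabp4 most abundant, summed to 115, 144 and 122 FPKM with Ang II and to 93.7, 253 and 95.1 FPKM with Ang II + Tec. Among them Adipoq, Cidec and Cfd were highest in the same 3 libraries as Myl7, while Fabp4 was highest in Ang II replicate 3 at 108.05 FPKM. The 8 markers of epicardium and mesothelium, with Upk3b most abundant, summed to 2.68, 15.2 and 0.68 FPKM with Ang II and to 2.93, 21.8 and 5.66 FPKM with Ang II + Tec, highest in replicate 2 of both groups. The part of any of these tissues in the levels of these genes was not tested. With Myl7 as a covariate in the fit, 6 of the 22 genes had an unadjusted p under 0.05, as did 25.9% of all tested genes, and none had an adjusted p under 0.05 in limma.

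**Figure D3:**
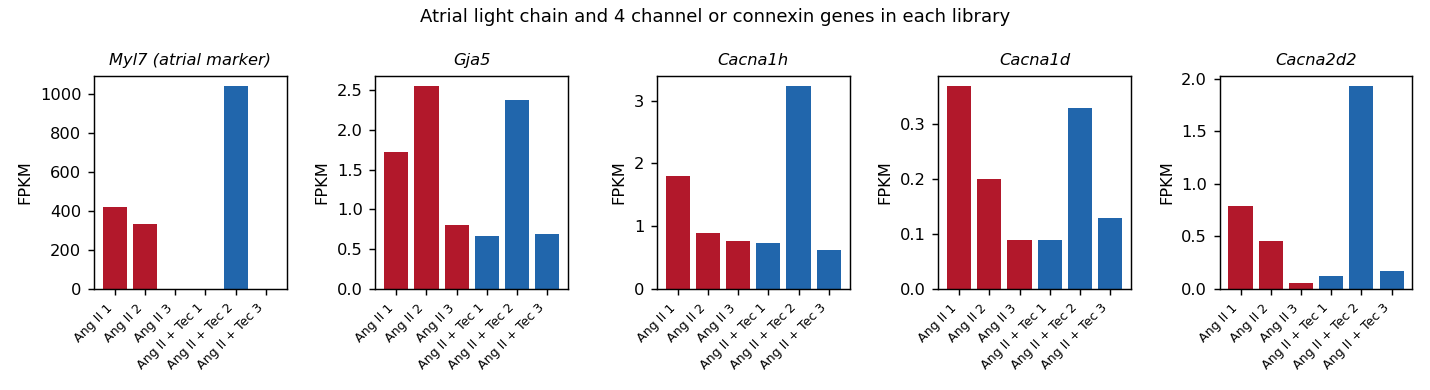
FPKM in each of the 6 libraries of the atrial marker Myl7 and of Gja5, Cacna1h, Cacna1d and Cacna2d2, each on its own axis from 0. In every panel Ang II replicates 1 and 2 and Ang II + Tec replicate 2 are the 3 highest libraries.

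Markers of other cell types also moved with single genes. The 8 fibroblast markers, with Dcn most abundant, summed to 775, 1030 and 172 FPKM with Ang II and to 141, 233 and 156 FPKM with Ang II + Tec, and 5 of 8 had an unadjusted p under 0.05 and were lower with Tec, as were 16.5% of all tested genes. The 8 macrophage markers, with Lyz2 most abundant, summed to 332, 507 and 257 FPKM with Ang II and to 176, 175 and 192 FPKM with Ang II + Tec, and 8 of 8 had an unadjusted p under 0.05 and were lower, against the same 16.5%. None of these had an adjusted p under 0.05 in limma, and none was at 0 in any library. Like Cacnb3, Cacng7 and Gja1, both lists were highest in Ang II replicates 1 and 2. The 12 markers of autonomic neurons summed to 26.1, 36.8 and 7.05 FPKM with Ang II and to 7.54, 12.1 and 7.25 FPKM with Ang II + Tec. Uchl1 was the most abundant of them, Chat was at 0 throughout, and Dbh and Stmn2, 2 of the 5 that passed the filter, were lower with Tec at an unadjusted p under 0.05 (background 16.5%). The 10 markers of smooth muscle and pericytes, with Rgs5 most abundant, summed to 296, 496 and 268 FPKM with Ang II and to 227, 395 and 231 FPKM with Ang II + Tec. The part of these cells in the lower values of Cacnb3, Cacng7, Gja1 and Gjc1 was not tested. The 9 Schwann cell markers, with Cnp most abundant, summed to 12.5, 12.4 and 7.01 FPKM with Ang II and to 4.95, 12.8 and 7.94 FPKM with Ang II + Tec. Their 3 highest libraries were the same as those of Scn7a, which was not tested further.

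Beside the skeletal muscle genes Scn4a and Cacna1s, 2 of the 6 skeletal muscle markers above the filter passed the adjusted threshold, as did 0.183% of all tested genes. Atp2a1, the calcium pump of fast skeletal fibres, stood at 0.10, 0.07 and 0.07 FPKM with Ang II and at 6.30, 7.51 and 7.46 FPKM with Ang II + Tec (adjusted p = 0.000251 in limma). Mylpf, a skeletal light chain, stood at 0.58, 0.56 and 0.22 FPKM with Ang II and at 4.14, 3.44 and 4.55 FPKM with Ang II + Tec (adjusted p = 0.0142 in limma). The myosin heavy chain Myh1 did not exceed 0.02 FPKM and Myh2 did not exceed 0.01 FPKM in any library, so these defining markers of fast fibres were near 0. Tnnt3, a fast troponin, stood at 6.91, 42.41 and 0.30 FPKM with Ang II and at 1.41, 1.04 and 1.31 FPKM with Ang II + Tec, and Tnni2, another, at 1.20, 8.05 and 0.71 FPKM against 3.68, 4.94 and 5.21 FPKM. Both were highest in Ang II replicate 2, and the groups overlapped. The 10 markers of the list in the table summed to 206, 316 and 139 FPKM with Ang II and to 643, 213 and 109 FPKM with Ang II + Tec, mostly from Acta1, which the stressed heart also expresses. Scn4b has the direction of Atp2a1 and Mylpf, but its Ang II replicate 3 stood near the hearts with Tec, where theirs did not. Of 12 ventricular markers, 7 had a lower and 5 a higher mean log2 value with Tec. Lrrc10 and Myh6 were higher at unadjusted p-values of 0.00815 and 0.0497 in limma (background 2.09%), and none was lower at a p under 0.05. Their relation to Scn4b was not tested.

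Partner genes of the channels followed the same background. Of 81 genes in 5 lists of scaffolds, regulators, auxiliaries, junction proteins and transcription factors, 68 passed the filter, of which 12 were lower and 0 higher with Tec at an unadjusted p under 0.05 (17.6%, against 18.6% of all tested genes). None had an adjusted p under 0.05 in limma, and their median log2 fold change was -0.15. By list the counts lower at an unadjusted p under 0.05 were 2 of 16 sodium channel scaffolds and modulators, 4 of 17 calcium channel regulators, 2 of 3 pacemaker channel auxiliaries, 2 of 15 connexin partners and 2 of 17 transcription factors of the conduction system. Of all tested genes, 16.5% were lower at this threshold, and differences from this share were not tested.

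Cav3, which encodes the caveolin of muscle cells and is a scaffold of ion channels, was the 1 partner with an unadjusted p under 0.01. It stood at 77.4, 76.2 and 61.2 FPKM with Ang II and at 49.6, 40.1 and 43.1 FPKM with Ang II + Tec. The groups did not overlap, with log2 fold change -0.68 (unadjusted p = 0.00168, adjusted p = 0.180 in limma). Cav3 was also the most abundant gene of its list. In the other lists the most abundant genes overlapped between the groups, except Snx17. Jph2, which holds calcium channels near the calcium store, stood at 99.54, 83.07 and 84.96 FPKM with Ang II and at 75.8, 85.4 and 72.9 FPKM with Ang II + Tec. Snx17, a sorting nexin, stood at 21.4, 21.2 and 17.7 FPKM with Ang II and at 15.2, 17.4 and 15.3 FPKM with Ang II + Tec. Both lay lower in mean with Tec, and Snx17 had an unadjusted p of 0.0368 in limma. Des, the intermediate filament that links the discs, stood at 560, 702 and 361 FPKM with Ang II and at 381, 309 and 319 FPKM with Ang II + Tec. Hopx, a cofactor of the conduction system, stood at 77.5, 69.6 and 113 FPKM with Ang II and at 96.3, 96.7 and 111 FPKM with Ang II + Tec. Des had a log2 fold change of -0.64 (unadjusted p = 0.0329, adjusted p = 0.243 in limma). Des was highest in Ang II replicates 1 and 2 and Hopx was lowest there.

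Some of the members, though not most, lie close together in the genome, a feature that the rule did not use. Of the 59 genes, 27 lie in 10 clusters with neighbours under 250 kb apart, and 9 of these 27 and 13 of the 32 others passed the filter. Within a cluster most often 1 gene was expressed. Gja3, at a mean of 4.93 FPKM, lies within 99.2 kb on chromosome 14 with Gjb2 and Gjb6, both at 0. Scn4b, at a mean of 3.32 FPKM, lies within 36.4 kb on chromosome 9 of Scn2b, another beta subunit gene, at 0.217 FPKM. Scn2b gave 0.30, 0.42 and 0.13 FPKM with Ang II and 0.12, 0.26 and 0.07 FPKM with Ang II + Tec, so the neighbour did not share the higher values with Tec. Where other genes overlap a member on the opposite strand, reads of both cannot be told apart unless strand was used. Gja5 overlaps Gpr89 at a mean of 2.94 FPKM, Cacna1c overlaps Dcp1b at 0.578 FPKM, and Cacnb2 overlaps the pseudogene Gm13316 at 0.872 FPKM. Scn4b, Gja3, Gjc1 and Cacnb3 overlap no other gene of the table.

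The deposited coordinates place Scn4b at chr9:45138395-45154152 on the plus strand, Gja3 at chr14:57034460-57058100 and Gjc1 at chr11:102799579-102819179 on the minus strand, and Cacnb3 at chr15:98630840-98644529 on the plus strand of GRCm38. RefSeq promoters of 300 bases (GRCm38.p6) were found for 17 of the 22 genes, 23 promoters in all, with a median of 63.0% G and C and 15 CpG dinucleotides, against 52.7% and 7 over 32851 mouse promoters. Both strands were searched for the TATA box as TATAAA, the NKX2-5 element as TNAAGTG, the T-box site as GGTGTGA, the GATA element as AGATAA and the E-box as CACGTG. These occur in 13.6%, 11.5%, 3.98%, 11.2% and 7.15% of all promoters, and among the 23 in 1 (Gja3), 2 (Cacnb2 and Cacnb3), 0, 2 (Gja1 and Scn7a) and 0. The promoters of Scn4b and Gja3 are printed because these genes had the 2 lowest unadjusted p-values of the 22, in opposite directions. Capitals mark TATAAA read on the other strand in Gja3, and Scn4b holds none of the 5 motifs. That of Scn4b is chr9:45138374-45138673 on the plus strand, with 66.3% G and C, and that of the upstream start of Gja3 is chr14:57057981-57058280 on the minus strand, with 63.3%.
Scn4b: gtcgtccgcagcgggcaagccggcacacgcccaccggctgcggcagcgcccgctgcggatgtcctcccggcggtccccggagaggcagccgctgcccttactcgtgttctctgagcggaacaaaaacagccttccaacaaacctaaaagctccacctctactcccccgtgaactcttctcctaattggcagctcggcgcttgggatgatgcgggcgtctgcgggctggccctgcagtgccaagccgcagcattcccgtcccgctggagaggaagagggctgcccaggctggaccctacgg
Gja3: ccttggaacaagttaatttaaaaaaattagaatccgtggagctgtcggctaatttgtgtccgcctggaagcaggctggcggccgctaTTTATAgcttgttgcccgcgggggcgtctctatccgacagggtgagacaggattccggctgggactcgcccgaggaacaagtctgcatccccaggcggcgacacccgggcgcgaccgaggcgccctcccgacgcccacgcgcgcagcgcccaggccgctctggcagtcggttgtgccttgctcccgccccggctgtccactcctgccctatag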

How the data were processed

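RNA of 6 mouse hearts, 3 in each of 2 groups, was sequenced. The authors deposited FPKM per gene and library. The submitters' processing notes name HISAT2 2.0, StringTie 1.3.0, Bowtie 0.12.2 and the build mm8, but 90.5% of the 30832 genes also found in GENCODE M21 on GRCm38 have the same coordinates there, so GRCm38 was used. The 22 members lie among the genes whose FPKM was at least 0.5 in at least 3 libraries. Sums of FPKM were 516699, 517381 and 592733 with Ang II and 623787, 581800 and 629989 with Ang II + Tec, with 41.3%, 40.1% and 48.9% and 51.3%, 49.6% and 52.5% from the mitochondrial genome. FPKM hold no read totals. Relative depth, inferred from the step of FPKM times length in low genes with 1 annotated transcript by a method and search range chosen after seeing the data, was 1.00, 1.00 and 1.00 with Ang II and 0.97, 1.30 and 1.27 with Ang II + Tec, and the depth of a gene in reads is unknown.

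The comparison was fitted on log2(FPKM + 1) over 13089 genes with limma 3.58.1 in R 4.3.3 (lmFit, eBayes with a trend), as Ang II + Tec minus Ang II, with Benjamini-Hochberg adjustment over all of them. This scale understates fold changes of low genes. The p-values measure only the spread between these hearts. The fit was tested on simulated data. No single value was tested outside the fit, where an exact permutation test of 3 against 3 cannot go below 0.1. Ratios, shares, clusters and motifs are descriptions with no test and were chosen after seeing the data. Tables and figures used pandas 2.3.3 and matplotlib 3.10.9 in Python 3.11.15. Alternatives changed the pseudocount, the filter, the scaling, the variance trend, a replicate block and Myl7 as a covariate, and left out each library.

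Members and lists were chosen with earlier results of these data known. Values per library are given for members above the filter on a list of genes with a known role in the heart or its other cells, with an unadjusted p under 0.05, with groups that do not overlap, or most abundant in their family, and for partner genes with an unadjusted p under 0.01 or most abundant in their list. Scn2b, Cacna2d2, Cacna1d and the marker genes were named after their values were seen. Identity between member proteins was not computed here. Some members are not reported here.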

Additional observations from a re-analysis of the deposited data

How the results depend on the processing

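Counts and fold changes were recomputed under 17 alternatives. The count of 4 genes with an unadjusted p under 0.05 became 7 with the replicate block (25.3% of all tested genes) and ranged from 2 to 10 when each library was left out (7.4% to 43.7% of all tested genes), and the count of called members ranged from 0 to 2. The count of members lower with Tec was 38 of 55 with no filter (69.1%), against 67.0% of all tested genes. Without a filter the median log2 fold change was -0.03 over the members and -0.04 over all tested genes. The median of the members was -0.04 with median-of-ratios scaling and -0.02 with quantile normalization, which center the libraries, where all tested genes gave 0.00 and 0.02. Leaving out each library gave medians of -0.28 to -0.12 for the members and -0.24 to -0.13 for all tested genes. Between the 3 libraries with Myl7 under 10 FPKM (1 with Ang II, 2 with Tec, no test, chosen after seeing the data) the median of the members was -0.11, where all tested genes gave -0.08. The 21 called genes of the whole table became 3 with no filter, 11 with a filter on the mean, 13 with Myl7 as a covariate, and 2 to 557 when each library was left out. The log2 fold change changed sign under median-of-ratios and quantile scaling in Cacna2d1 (0.06 and 0.06) and Cacnb2 (0.14 and 0.16). When each library was left out it ranged across 0 in Cacna1h (-0.33 to 0.36), Hcn4 (-0.06 to 0.21), Gja4 (-0.50 to 0.04), Cacnb2 (-0.07 to 0.03) and Cacng6 (-0.34 to 0.11). The cause of these changes was not tested beyond what the scaling and the smaller groups entail. The sign of 14 members held in the alternatives run. The sample labels state no pairing of hearts by replicate number. Deviations of equally numbered libraries from their group means correlated at -0.04, 0.43 and 0.38. Replicates 2 and 3 of either group correlated best with their own number, and replicate 1 of either group did not. With 3 libraries per group these deviations depend on each other, so the correlations cannot settle whether hearts were paired. With the replicate block no member had an adjusted p under 0.05. FPKM keep no read counts, so the counting error of genes near 0.5 FPKM is unknown.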

Other observations

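A pair of partner genes stood out by library after their values were seen. Panx1, a channel protein related in form to connexins, stood at 1.40, 1.64 and 0.25 FPKM with Ang II and at 0.38, 0.22 and 0.24 FPKM with Ang II + Tec, below the filter, with Ang II replicates 1 and 2 far above the other 4 libraries. Fgf12, an intracellular partner of sodium channels, stood at 2.26, 6.67 and 0.03 FPKM with Ang II and at 0.04, 4.53 and 0.02 FPKM with Ang II + Tec. Its 3 high libraries were those with the atrial transcript Myl7, while its relative Fgf13 was even, at 9.02, 7.95 and 9.45 FPKM with Ang II and at 8.95, 10.4 and 10.9 FPKM with Ang II + Tec. The adipocyte gene Ucp1 stood at 18.3 FPKM in Ang II + Tec replicate 2, at 0.62 FPKM in Ang II replicate 2 and at 0 in the other 4 libraries. None of these patterns was tested further.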
